A study of Mus musculus with 4 samples.

Results

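Matrix metalloproteinases, their tissue inhibitors, the ADAMTS proteases and the lysyl oxidases were followed in mouse liver as 1 gene family group, chosen by symbol (Mmp, Timp or Adamts followed by a digit, and Lox and Loxl1 to Loxl4). The group held 48 of the 22180 genes compared: 22 metalloproteinases, 4 inhibitors, 18 ADAMTS proteases and 4 lysyl oxidases. For each gene the array row with the highest mean over the 4 arrays was used, and rows that name several genes were left out. Adamts2, Loxl2 and Mmp15 had no row of their own and were not analysed as members. Male C57BL/6J mice, an inbred wild-type strain, were put at 6 weeks of age on food deficient in methionine and choline (the MCD diet, 2 samples) or kept on a normal diet (2 samples) for 20 weeks. Liver RNA of each sample was hybridised to its own Mouse Gene 2.1 ST array, which gives 1 summary signal per row on a log scale. The labels call the samples mice with a number and say nothing of separate cages or batches, so p-values cover only how far these samples spread, which may be technical. Whole liver was sampled, so more cells of a type and more RNA per cell cannot be told apart.

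Matrix metalloproteinases are zinc enzymes made as inactive precursors that cut collagens, elastin and other matrix proteins once their propeptide is removed. Tissue inhibitors of metalloproteinases bind the active site, and Timp2 also helps the membrane-bound enzyme encoded by Mmp14 to activate the precursor of Mmp2. The ADAMTS proteases are secreted relatives that cut proteoglycans, procollagens or von Willebrand factor, while lysyl oxidases crosslink collagen and elastin. In injured liver these genes are known from macrophages, stellate cells and bile duct epithelium, and their balance shapes scar formation and removal. Feeding mice without methionine and choline is a common model of fatty, inflamed liver.

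In MCD diet livers 11 of the 48 genes rose and 0 fell (limma, adjusted p under 0.05). They were the metalloproteinases Mmp12, Mmp7, Mmp2 and Mmp14, the inhibitors Timp2 and Timp3, the ADAMTS genes Adamts5, Adamts9, Adamts1 and Adamts15, and the lysyl oxidase Loxl1. That is 22.9% of the group, against 6.37% of all genes called higher, 3.62% called lower and 9.98% called in either direction. At an unadjusted p under 0.05, 15 members were higher (13.8% of all genes were) and 2 were lower (10.4% of all genes were). Both MCD diet arrays lay above both normal diet arrays for 20 of the 48 (41.7%, against 25.0% of all genes) and below them for 10 (20.8%, against 29.2%). The median difference of the group was 0.07 on the log2 scale, against -0.03 for all genes, so most members moved little and a few moved far. The 37 members that did not pass differed by -0.56 to 0.51, with a median of 0.00. Of the 11 genes that rose, 4 (Mmp12, Adamts5, Adamts15 and Loxl1) had a mean signal in normal diet livers below the median of genes there. The count was smaller when any 1 of the arrays was left out, and the cause was not tested.

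**Figure D1:**
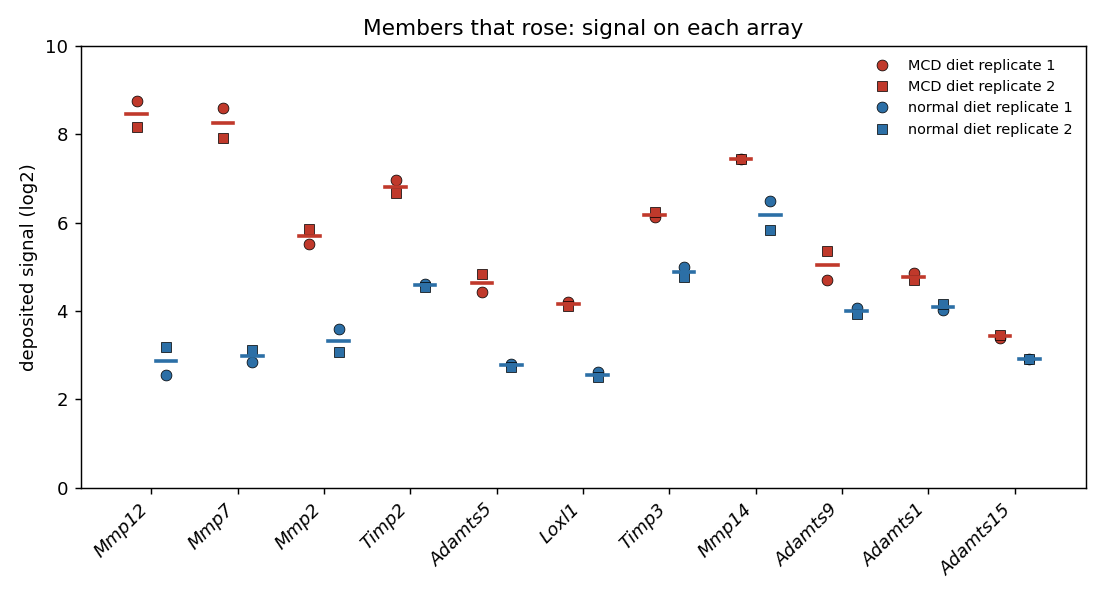
Signal of the 11 genes that rose on each array (vertical axis, deposited log2 signal), with MCD diet arrays in red left of normal diet arrays in blue and a bar at the mean of each pair. The diets do not overlap for any of these genes. Mmp12 and Mmp7 stand apart with differences of 5.59 and 5.26.

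The deposited values of the arrays were alike in overall signal. Processing can bring this about, and the normalization is not stated, so it is no measure of array or RNA quality. Their medians ranged from 2.57 to 2.65 and their brightest rows from 12.07 to 12.13 on the log2 scale, and background signals were not used here. All 7 measured hepatocyte markers lay above the median signal of genes.

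The largest rises were those of Mmp12, the elastase of macrophages, and Mmp7, a small metalloproteinase of epithelia. Mmp12 had signals of 8.74 and 8.18 in MCD diet livers, against 2.56 and 3.18 in normal diet livers. It was higher by 5.59 ± 0.27 on the log2 scale (48.0-fold, limma adjusted p = 0.000385). Here and in what follows ± gives the standard error of a log2 difference from limma, with n = 2 arrays per diet. Mmp7 had signals of 8.59 and 7.91 in MCD diet livers, against 2.84 and 3.13 in normal diet livers. Its difference was 5.26 ± 0.24 (38.4-fold, limma adjusted p = 0.000349). Among 22180 genes ordered from the largest rise downwards these genes held ranks 3 and 4. Their normal diet signals were dim, and without a background value the folds are uncertain in size. A second, dimmer row of Mmp7 gave 2.245 and 1.493 in MCD diet livers, against 1.495 and 1.883 in normal diet livers, a difference of 0.18 ± 0.27. With the mean of both rows the difference of Mmp7 was 2.72 and its call was kept.

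Mmp12 and Mmp7 lie on chromosome 9 in a run of 10 metalloproteinase genes, which are the only protein-coding genes of that stretch in the RefSeq annotation. Their neighbours gave no such signal. The 8 others, among them the collagenases Mmp8 and Mmp13 and the stromelysins Mmp3 and Mmp10, differed by -0.36 to 0.12 and had a median of -0.02. None of the 8 passed in limma, and 1 of them, the collagenase Mmp1b, had an unadjusted p under 0.05. Mmp1b had signals of 1.88 and 1.70 in MCD diet livers, against 2.12 and 2.18 in normal diet livers (difference -0.36 ± 0.13, limma adjusted p = 0.153). All 8 neighbours had signals of at most 3.01 on any array.

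**Figure D2:**
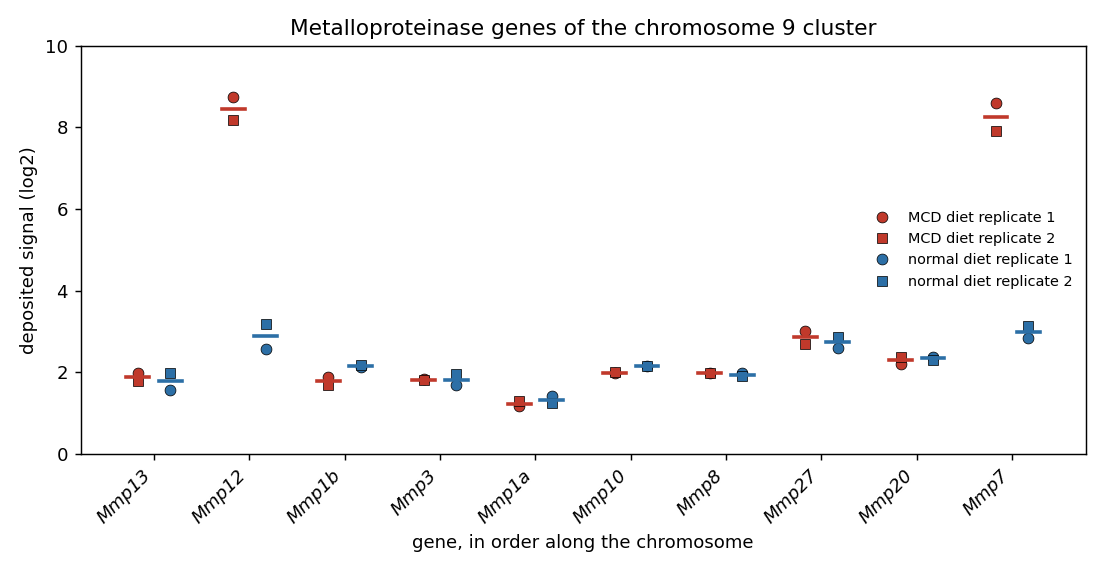
Signal on each array (vertical axis, deposited log2 signal) for the 10 metalloproteinase genes of the chromosome 9 cluster in their order along the chromosome, with MCD diet arrays in red left of normal diet arrays in blue and a bar at the mean of each pair. Mmp12 and Mmp7, near opposite ends of the run, are far above their normal diet signals, while the differences of the other 8 lie between -0.36 and 0.12.

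The stretches before the start sites of these genes are shown because the same short element stands before both genes that rose and before several neighbours that were not called. The element TGAGTCA, which reads as TGACTCA on the other strand, is the site bound by AP-1, the Fos and Jun transcription factor, and is known from many metalloproteinase promoters. It was searched together with the TATA box TATAAA, which reads as TTTATA on the other strand, on both strands of the 250 bases before each start in the RefSeq promoter table of build GRCm38.p6, which holds 31 of the 48 members. The motifs do not overlap. The 130 bases directly before the start follow for Mmp12 and Mmp7, which rose, and for Mmp3, Mmp10 and Mmp13. They read 5′ to 3′ on the plus strand, with each motif in capitals where it occurs. Mmp12 and Mmp7 are listed with more than one start, and the window that holds the AP-1 element is given.
Mmp12 (chr9:7347244-7347373): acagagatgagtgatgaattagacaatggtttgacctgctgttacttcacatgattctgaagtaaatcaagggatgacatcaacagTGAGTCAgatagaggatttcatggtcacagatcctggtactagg
Mmp7 (chr9:7691960-7692089): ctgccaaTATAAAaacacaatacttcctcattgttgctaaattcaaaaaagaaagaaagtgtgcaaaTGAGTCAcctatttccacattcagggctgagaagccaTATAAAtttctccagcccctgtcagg
Mmp3 (chr9:7445692-7445821): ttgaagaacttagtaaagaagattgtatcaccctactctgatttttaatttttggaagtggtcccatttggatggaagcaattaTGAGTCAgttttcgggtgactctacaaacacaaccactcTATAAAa
Mmp10 (chr9:7502212-7502341): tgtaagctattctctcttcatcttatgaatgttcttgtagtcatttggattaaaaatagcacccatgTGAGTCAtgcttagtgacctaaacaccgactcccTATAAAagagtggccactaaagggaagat
Mmp13 (chr9:7272384-7272513): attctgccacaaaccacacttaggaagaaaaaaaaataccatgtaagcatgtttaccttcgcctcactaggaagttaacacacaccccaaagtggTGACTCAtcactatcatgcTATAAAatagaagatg

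The AP-1 element began 44 bases before the start in Mmp12, 63 in Mmp7, 46 in Mmp3, 63 in Mmp10 and 35 in Mmp13. Across the cluster 7 of the 10 genes held it, including 5 of the 8 that were not called, and all 7 of the members with it lie in this cluster. By windows this was 7 of 12 (58.3%), against 4.46% of the 32851 windows of the whole table. The TATA box was in 7 of the 12 windows as well, against 12.4% of all windows. Outside the cluster, the windows of the genes that rose and are in the table, which are Mmp14, Timp2, Timp3, Adamts1 and Adamts9, held no AP-1 element in these letters, and that of Adamts1 held a TATA box.

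The gelatinase Mmp2, which cuts denatured and type IV collagen and is made by stellate cells, rose in MCD diet livers. Its signals were 5.53 and 5.85 in MCD diet livers, against 3.58 and 3.07 in normal diet livers, so that it was higher by 2.36 ± 0.21 (5.14-fold, limma adjusted p = 0.00246). The other gelatinase, Mmp9, is known from neutrophils and macrophages. It had signals of 2.94 and 2.81 in MCD diet livers, against 2.68 and 3.18 in normal diet livers, and the diets overlapped (difference -0.06 ± 0.19, limma adjusted p = 0.895).

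Among 5 measured membrane-type metalloproteinases, which are anchored at the cell surface, 1 rose. Mmp14, the activator of the Mmp2 precursor, had signals of 7.45 on both MCD diet arrays, against 6.50 and 5.85 in normal diet livers. The difference was 1.28 ± 0.22 (2.43-fold, limma adjusted p = 0.0199), and the limma adjusted p was 0.0901 without MCD diet replicate 1 and 0.0755 without MCD diet replicate 2. The normal diet arrays differed from each other by 0.65, and both lay below the MCD diet arrays. Mmp16, Mmp17, Mmp24 and Mmp25 differed by -0.19 to 0.00 at low signals and did not pass. A brighter row, left out because it names Mmp24 together with BC029722, went the other way (0.48 ± 0.21).

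The 4 members classed here as collagenases, which cut fibrillar collagen, stayed at low signals on every array. The class is not a full list of enzymes that may cut such collagen, and Mmp14 is counted with the membrane-type enzymes. Mmp8 gave 1.98 and 1.99 in MCD diet livers, against 1.97 and 1.91 in normal diet livers. Mmp13, the main interstitial collagenase of mice, gave 1.97 and 1.78 in MCD diet livers, against 1.57 and 1.98 in normal diet livers. Of the 4 collagenases 0 passed in limma, and 1 (Mmp1b, above) had an unadjusted p under 0.05.

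Mmp19, a secreted metalloproteinase expressed in liver, went the other way. It had signals of 7.16 and 6.80 in MCD diet livers, against 7.43 and 7.66 in normal diet livers. The diets were separate on all arrays, but the difference of -0.56 ± 0.17 did not pass (limma adjusted p = 0.102). The furin-activated stromelysin Mmp11 differed by 0.12 ± 0.13, Mmp23 by 0.42 ± 0.18 and the epilysin Mmp28 by 0.07 ± 0.14, none of them past the threshold.

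Of the 4 tissue inhibitors, Timp2 and Timp3 rose. Timp2, the partner of Mmp14 in the activation of Mmp2, had signals of 6.97 and 6.66 in MCD diet livers, against 4.62 and 4.55 in normal diet livers. It was higher by 2.23 ± 0.15 (4.70-fold, limma adjusted p = 0.00102). Timp3, which binds to the matrix and also inhibits ADAM and ADAMTS proteases, had signals of 6.13 and 6.23 in MCD diet livers, against 4.99 and 4.77 in normal diet livers. It was higher by 1.30 ± 0.13 (2.47-fold, limma adjusted p = 0.00378).

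Timp1, the inhibitor most often measured as a sign of liver fibrosis, had low signals and did not pass. It gave 2.68 and 2.46 in MCD diet livers, against 2.27 and 2.18 in normal diet livers, a difference of 0.34 ± 0.14 (limma adjusted p = 0.191). Both MCD diet arrays lay above both normal diet arrays. Timp4 gave 2.26 and 2.86 in MCD diet livers, against 2.83 and 2.64 in normal diet livers, and the diets overlapped.

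**Figure D3:**
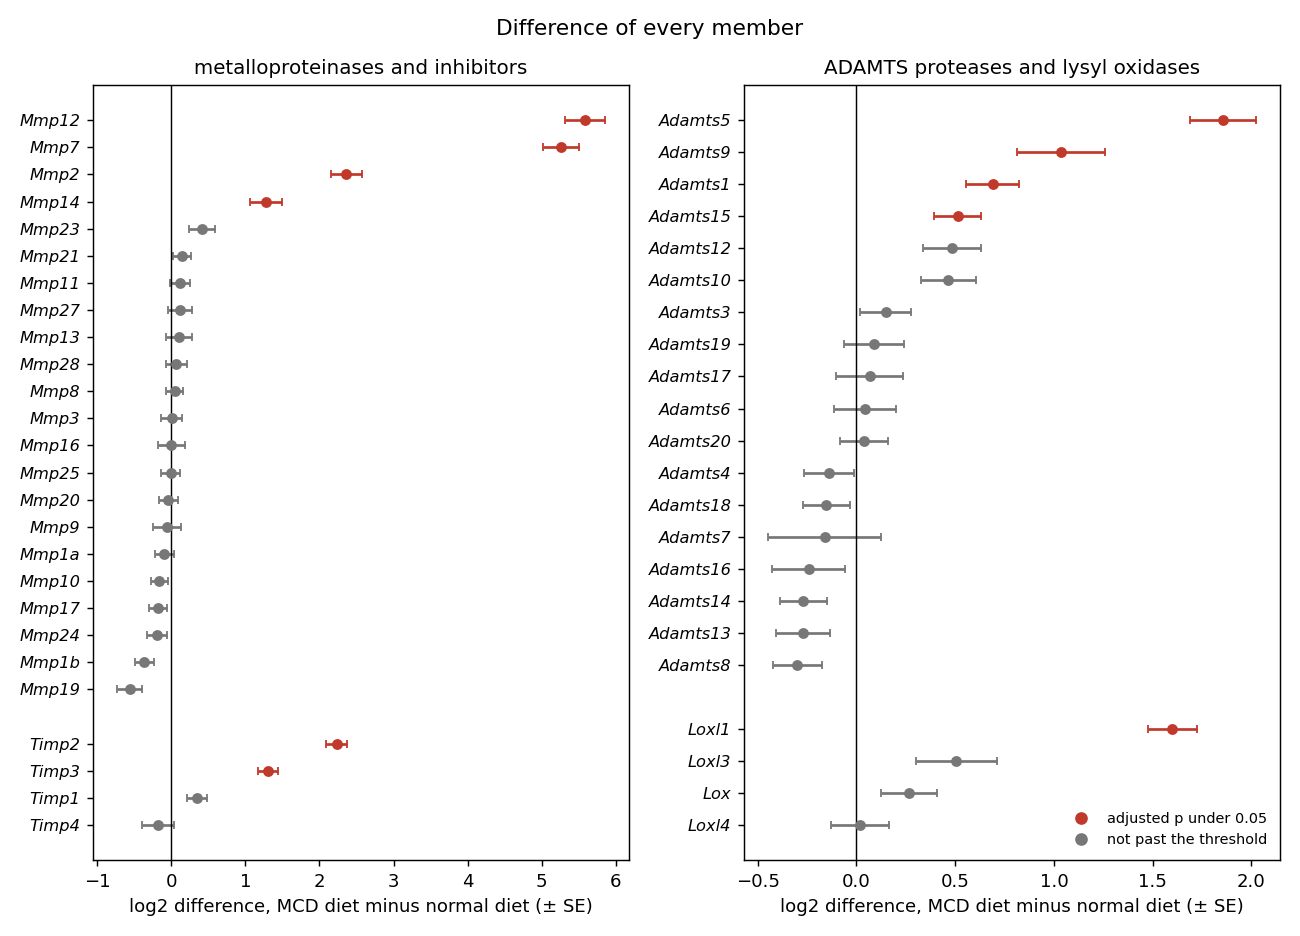
Log2 difference, MCD diet minus normal diet, of each of the 48 genes with its standard error (horizontal axis, scales differ between panels), grouped by family and sorted within it. The 11 genes past an adjusted p of 0.05 are in red. The lowest value is that of Mmp19 at -0.56, and the 2 highest are those of Mmp12 and Mmp7.

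The ADAMTS genes that rose belong to those known to cut proteoglycans. Of 7 such genes Adamts5, Adamts9, Adamts1 and Adamts15 rose and Adamts4, Adamts8 and Adamts20 did not pass, while 0 of the 11 other ADAMTS genes passed in limma. Of those 11, Adamts10 and Adamts12 had an unadjusted p under 0.05. Their differences of 0.46 and 0.48 were close to the 0.51 of Adamts15, so this split rests in part on the threshold. Adamts5, an aggrecan- and versican-cutting enzyme, had signals of 4.42 and 4.83 in MCD diet livers, against 2.80 and 2.75 in normal diet livers. Its difference was 1.86 ± 0.17 (3.62-fold, limma adjusted p = 0.00253).

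The other calls of the family were smaller and less secure. Adamts9 had signals of 4.71 and 5.36 in MCD diet livers, against 4.08 and 3.93 in normal diet livers (1.04 ± 0.22, 2.05-fold, limma adjusted p = 0.0404). Adamts1 had signals of 4.87 and 4.70 in MCD diet livers, against 4.02 and 4.17 in normal diet livers (0.69 ± 0.13, 1.61-fold, limma adjusted p = 0.0283). Adamts15 had signals of 3.38 and 3.47 in MCD diet livers, against 2.91 on both normal diet arrays (0.51 ± 0.12, 1.43-fold, limma adjusted p = 0.0490). For these 3 genes the MCD diet arrays lay above the normal diet arrays, yet the number of ADAMTS genes called was 1 without MCD diet replicate 2 or either normal diet array, and 2 without MCD diet replicate 1. Without single arrays the limma adjusted p ranged from 0.0180 to 0.155 for Adamts9, from 0.0601 to 0.129 for Adamts1 and from 0.134 to 0.178 for Adamts15. The gene called beside Adamts5 without MCD diet replicate 1 was Adamts9.

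The remaining ADAMTS genes did not pass. Adamts12, a protease that cuts cartilage oligomeric matrix protein, had signals of 3.26 and 2.94 in MCD diet livers, against 2.63 and 2.60 in normal diet livers (0.48 ± 0.15, limma adjusted p = 0.106). Adamts10, which is associated with fibrillin, had signals of 3.74 and 3.49 in MCD diet livers, against 3.20 and 3.10 in normal diet livers (0.46 ± 0.14, limma adjusted p = 0.101). Adamts13, which cuts von Willebrand factor and is made by hepatic stellate cells, had signals of 3.05 and 3.07 in MCD diet livers, against 3.46 and 3.19 in normal diet livers. It differed by -0.27 ± 0.14 (limma adjusted p = 0.308), with no overlap between the diets. Further, dimmer rows of Adamts8, Adamts14 and the metalloproteinase Mmp11 differed by -0.16, -0.13 and 0.13. The procollagen N-proteinases Adamts3 and Adamts14 differed by 0.15 ± 0.13 and -0.27 ± 0.12. Over the 14 ADAMTS genes that did not pass, the differences ran from -0.30 to 0.48.

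One lysyl oxidase rose. Loxl1, which crosslinks elastin, had signals of 4.21 and 4.12 in MCD diet livers, against 2.63 and 2.50 in normal diet livers. It was higher by 1.60 ± 0.12 (3.03-fold, limma adjusted p = 0.00158), and both arrays of each diet lay within 0.13 of each other.

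Loxl3 had signals of 3.90 and 3.55 in MCD diet livers, against 2.98 and 3.45 in normal diet livers (0.51 ± 0.21, limma adjusted p = 0.202). Lox, the founding member of the family, gave 2.26 and 2.08 in MCD diet livers, against 1.79 and 2.02 in normal diet livers (0.27 ± 0.14, limma adjusted p = 0.334). Loxl4 differed by 0.02 ± 0.15, and its diets overlapped. All 4 differences were above 0, and 1 passed. The rows left out because they name Loxl2 together with Gm21451 went opposite ways (0.46 ± 0.19 and -0.19 ± 0.12).

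The MCD diet arrays differed from each other for some of the members that rose and in no common direction. Mmp12 and Mmp7 were higher on MCD diet replicate 1 than on replicate 2 by 0.57 and 0.68, and Timp2 by 0.31. In contrast Mmp2, Adamts5 and Adamts9 were lower on replicate 1 than on replicate 2, with differences of -0.32, -0.41 and -0.65. For the other 5, Adamts1, Loxl1, Mmp14, Adamts15 and Timp3, replicate 1 minus replicate 2 lay between -0.10 and 0.17. With 1 pair of arrays these values are a description.

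Markers of several cell types moved with the diet. Beside their counts, 6.37% of all genes were called higher and 3.62% lower. The list drawn up for monocyte-derived macrophages also holds genes that are not exclusive to them, such as Csf1r and Cd68. Of these macrophage markers 11 of 12 rose and 0 fell. They averaged 6.85 and 6.45 in MCD diet livers, against 3.89 and 3.74 in normal diet livers. Cholangiocyte markers rose in 5 of 6 measured and averaged 3.85 and 3.92 in MCD diet livers, against 2.74 and 2.64 in normal diet livers. That count was 2 without MCD diet replicate 1 or normal diet replicate 1, and 3 without either of the other arrays. Stellate cell and myofibroblast markers rose in 4 of 11 and fell in 1, and averaged 5.26 and 5.61 in MCD diet livers, against 4.67 and 4.35 in normal diet livers. The 1 that fell, Postn (periostin, a matrix protein of activated fibroblasts), was not called without MCD diet replicate 1 or either normal diet array, with the replicate number as a block or with all rows tested. The part of these cells in the rises of Mmp12, Mmp7, Mmp2, Timp2 and the others was not tested.

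Neutrophils, which store the proteins of Mmp8 and Mmp9, gave no marker past the threshold in limma (0 of 10, with 2 higher at an unadjusted p under 0.05). Signals were dim, with all 10 markers at or below the median of genes. For neutrophils all 10 differences were above 0, and 6 had both MCD diet arrays above both normal diet arrays (25.0% of all genes did). Their markers averaged 2.90 and 2.30 in MCD diet livers, against 2.08 and 2.12 in normal diet livers, and 4 of them were called higher without MCD diet replicate 2. Kupffer cell markers fell in 3 of 7 and averaged 4.70 and 4.17 in MCD diet livers, against 5.12 and 5.14 in normal diet livers. Without MCD diet replicate 2, 1 Kupffer cell marker was called higher. Endothelial markers fell in 2 of 7, a count of 0 without MCD diet replicate 1 or normal diet replicate 1 and of 1 without either other array. Hepatocyte markers fell in 2 of 7 and averaged 10.2 and 10.3 in MCD diet livers, against 10.6 and 10.6 in normal diet livers, and that count was 1 without MCD diet replicate 2 and 0 without any other array, with the replicate number as a block or with all rows tested. Of the markers of tissues beside the liver, 0 of 4 for mesothelium and 0 of 4 for pancreas passed in limma, with 1 and 0 at an unadjusted p under 0.05. For adipocytes 1 of 4 rose, Cidec, a lipid droplet protein that fatty hepatocytes also make.

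Genes that act on the members or beside them were mixed. For comparison, 6.37% of all genes were called higher and 3.62% lower. In the plasminogen system, whose product plasmin activates metalloproteinase precursors, 6 of 9 measured genes rose and 0 fell, with a median of 0.94. The plasminogen activator Plat rose by 2.40 ± 0.18 (limma adjusted p = 0.00149) and Anxa2, a cell surface partner of plasminogen activation, by 2.94 ± 0.22 (limma adjusted p = 0.00154). The count was 2 without MCD diet replicate 1, and 3 without MCD diet replicate 2 or normal diet replicate 1. Of 12 proprotein convertases and other activators 2 rose and 3 fell, with a median of -0.30. The membrane serine protease St14 rose by 1.67 ± 0.20 (limma adjusted p = 0.00576). Ctsk rose further, by 2.54 ± 0.38 (limma adjusted p = 0.0129). Its signals were 6.10 and 4.83 in MCD diet livers, against 2.87 and 2.97 in normal diet livers.

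The genes of that list that fell include Bmp1, whose protease removes the C-propeptide of procollagens and activates lysyl oxidase precursors. It fell by 0.92 ± 0.13 (limma adjusted p = 0.0103), with an adjusted p of 0.0575 without MCD diet replicate 1 and 0.0562 without normal diet replicate 2. The convertase Pcsk6 fell by 1.05 ± 0.16 (limma adjusted p = 0.0119, and 0.0527 and 0.0568 without replicate 2 of the MCD diet or of the normal diet). The hepatocyte serine protease Hpn fell by 0.75 ± 0.14 (limma adjusted p = 0.0270), a call kept without normal diet replicate 1 and lost without each other array (adjusted p from 0.0978 to 0.121). The number that fell was 1 without either MCD diet array and 0 without normal diet replicate 2, and the number that rose was 1 without either normal diet array.

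Of 15 other inhibitors and ADAMTS-like proteins 1 rose (6.67%, near the 6.37% of all genes) and 0 fell, with a median of 0.06. Adamtsl2, an ADAMTS-like protein without protease activity, rose by 1.16 ± 0.12 (limma adjusted p = 0.00422). Of 9 membrane-bound ADAM proteases 3 rose (Adam8 by 2.40, Adam10 by 1.04 and Adam33 by 0.69) and 0 fell, with a median of -0.07. That count was 1 without MCD diet replicate 1 or normal diet replicate 1, and 0 without normal diet replicate 2.

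Among 14 measured genes of collagen modification and crosslinking 1 rose (7.14%, near the 6.37% of all genes) and 0 fell, with a median of 0.37. It was P3h2, a prolyl hydroxylase of collagen, which rose by 1.72 ± 0.23 (limma adjusted p = 0.00811). At an unadjusted p under 0.05 in limma, 8 of the 14 were higher (13.8% of all genes were) and 0 lower (10.4% of all genes were). Both MCD diet arrays lay above both normal diet arrays for 8 (57.1%, against 25.0% of all genes). They lay below them for 3 (21.4%, against 29.2%). So the closeness to the share of all genes holds only at the adjusted threshold. There were 2 calls without MCD diet replicate 2 or normal diet replicate 1, and 3 after centring each array on its median or without the dimmest genes. Of 19 measured matrix substrates 6 rose and 0 fell, with a median of 0.53. The elastic fibre protein Fbln5, which tethers Loxl1 to elastin, rose by 1.98 ± 0.20 (limma adjusted p = 0.00358), and the collagen chain Col6a3 by 1.39 ± 0.13 (limma adjusted p = 0.00270). Without MCD diet replicate 2, 3 of the substrates were called.

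**Figure D4:**
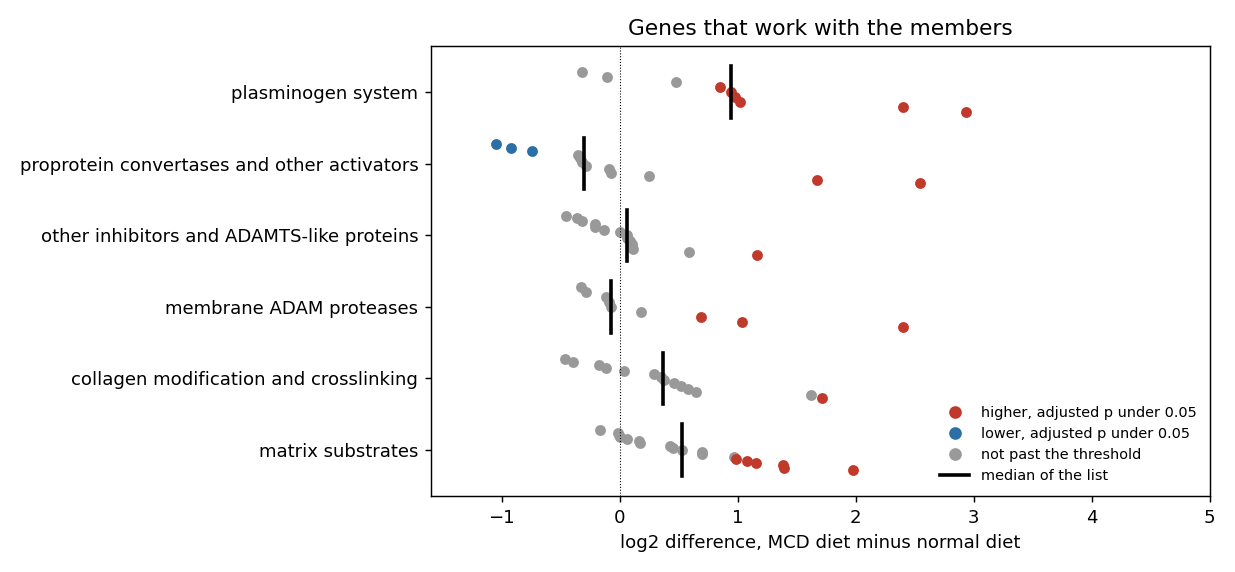
Log2 difference, MCD diet minus normal diet (horizontal axis), of each measured gene in 6 lists of genes that work with the members, 1 point per gene, with a black bar at the median of each list. Genes called higher are red, genes called lower are blue and the rest are grey. Medians range from -0.30 for the activators to 0.94 for the plasminogen system.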

How the data were processed

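Liver RNA of 4 samples was hybridised to gene-level arrays. The deposited values are the authors' log2 signals. Per the submitters' processing notes they come from Transcriptome Analysis Console. The sources used here do not give its version, the normalization or the log base, which was inferred from the range of the values. Of 34472 rows, 23521 name exactly 1 gene, 1814 several and 9137 none in the platform annotation. The row with the highest mean was used per gene, which left 22180 genes, with no filter on dim genes. Diets were taken from the sample titles and compared with limma 3.58.1 in R 4.3.3 (all 4 arrays, no block, two-sided, Benjamini-Hochberg over all genes, threshold 0.05). The members and the gene lists were chosen with earlier results of these data known. Any member may be named in the text, and from the other lists only called genes. The test was also run on 20 simulated sets of 22180 genes with 200 genes changed, against 2214 called in these data. It recovered 48.6% of genes changed by 1 and 96.2% of those changed by 2 on the log2 scale, with 4.74% of calls false. Such shares depend on how many genes change, so they may differ for these data. Promoter windows come from RefSeq, build GRCm38.p6.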

Additional observations from a re-analysis of the deposited data

How the results depend on the processing

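The number of members called higher was 11, and the 0 called lower stayed 0 under every alternative tried. It was 8 with quantile normalization, 11 with median centring, without the dimmest 25% or 50% of genes and when rows of 1 gene were averaged, 10 with an intensity trend, 9 with all rows tested and 9 with an unadjusted p under 0.05 and at least 2-fold difference. Leaving out single arrays gave 7 to 8. Mmp12, Mmp7, Mmp2, Timp2, Timp3, Adamts5 and Loxl1 kept their direction and call under all 13 alternatives, with the difference of Mmp7 down to 2.72 when its rows were averaged. Mmp14 kept its call under 11 of 13, Adamts9 under 7, Adamts1 under 6 and Adamts15 under 4, and where calls were lost the cause was not tested. With the replicate number as a block the count was 8, and the calls of Adamts9, Adamts1 and Adamts15 were lost. The numbers are not known to pair the samples: the deviations of same-numbered arrays correlated at 0.05 across genes. ADAMTS calls (4) numbered 1 with quantile normalization or the block, and 2 with all rows or the 2-fold rule. Over all genes 1412 were called higher and 802 lower, against 688 to 1011 and 362 to 482 without single arrays, and 780 and 375 with the 2-fold rule. The 2-fold rule called 3 plasminogen system genes (6), 1 activator lower (3), 2 cholangiocyte markers (5) and 0 endothelial markers lower (2). Hepatocyte markers called lower (2) numbered 0 with the block or all rows, and 1 with quantile normalization, median centring, without the dimmest 25% of genes or with the 2-fold rule. Stellate cell markers called lower (1) numbered 0 with the block or all rows. Without the dimmest 50% of genes 2 cholangiocyte markers were called. Crosslinking calls (1) numbered 2 with the trend, the block or the 2-fold rule and 3 with median centring or without the dimmest genes. With 1 sample left in a diet, that sample is assumed to vary like the others. Signal over background was not analysed, so dim members may have differed without a call.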
